A study of Mus musculus with 24 samples.

Results

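The genes described here sense sterols in liver cells or set how much sterol the cells take up. They are Srebf2, Scap, Insig1, Insig2, Stard4, Mylip and Npc1l1, 7 genes listed by name. Of these, 6 had a row among the 14995 genes of the deposited count table, and all 6 had enough counts to be among the 13121 genes tested. Npc1l1, a sterol importer of the cell surface, had no row and was not analysed here. Liver RNA of mice gave 24 libraries in 3 groups of 8, collected 20 weeks after surgery. Sham mice had a sham operation. RYGB mice had Roux-en-Y gastric bypass, in which food is led past most of the stomach and the first part of the small bowel. WM mice ate a restricted amount so that their weight followed that of the RYGB group. The series title calls the mice obese, while strain, sex, age, diet and any operation on the WM mice are not stated in the labels. Nothing there says that libraries of a group are separate animals, so p-values measure only the spread between these libraries. Each library counted the 3′ ends of messenger RNA, so that a transcript gives about 1 read whatever its length. Levels are given as CPM, the counts of a gene relative to the library's scaled total, after TMM scaling, which assumes that most genes do not change.

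Cells hold their cholesterol steady through a sensor in the endoplasmic reticulum membrane. When sterol is scarce, SCAP, the product of Scap, escorts the transcription factor precursor SREBP2, the product of Srebf2, to the Golgi apparatus, where proteases release its active part. When sterol is plentiful, INSIG1 and INSIG2 bind SCAP and hold the complex back. Active SREBP2 raises the genes of cholesterol synthesis and, in many cells, Insig1, Stard4 and its own gene, while the liver transcript of Insig2 is known to fall with insulin. MYLIP, a ubiquitin ligase induced by the liver X receptors (LXR, nuclear receptors for oxidized sterols), lowers the uptake of LDL particles.

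Insig2 was the member that set the WM livers apart. It stood at 157 ± 44.4 CPM in WM (mean ± SD, n = 8 in each group here and below), against 369 ± 69.0 CPM in Sham and 365 ± 117 CPM in RYGB. Scap and Stard4 were higher in WM than in Sham by 0.59 and 0.48 on the log2 scale. Srebf2 was highest in RYGB, but its differences did not pass the test, and neither did those of Insig1 and Mylip. A gene is called here when its adjusted p is below 0.05 in edgeR's quasi-likelihood test, adjusted by Benjamini-Hochberg over all 13121 genes.

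In WM vs Sham, 2 of the 6 members rose and 1 fell, beside 16.5% of all tested genes called higher and 15.0% called lower. In RYGB vs WM, 1 member was higher and 0 were lower, beside 1.06% and 0.434% of all genes. In RYGB vs Sham, 0 of the 6 members passed in edgeR, beside 12.7% of all genes called higher and 11.0% called lower. There 2 members, Srebf2 and Scap, had an unadjusted p under 0.05, DESeq2 called 1, Srebf2, and limma-voom and limma-trend called 0. In 0 of the 6 did the RYGB and Sham libraries fail to overlap, beside 5.39% of all genes. Both comparisons with Sham use the same 8 Sham libraries.

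**Figure D1:**
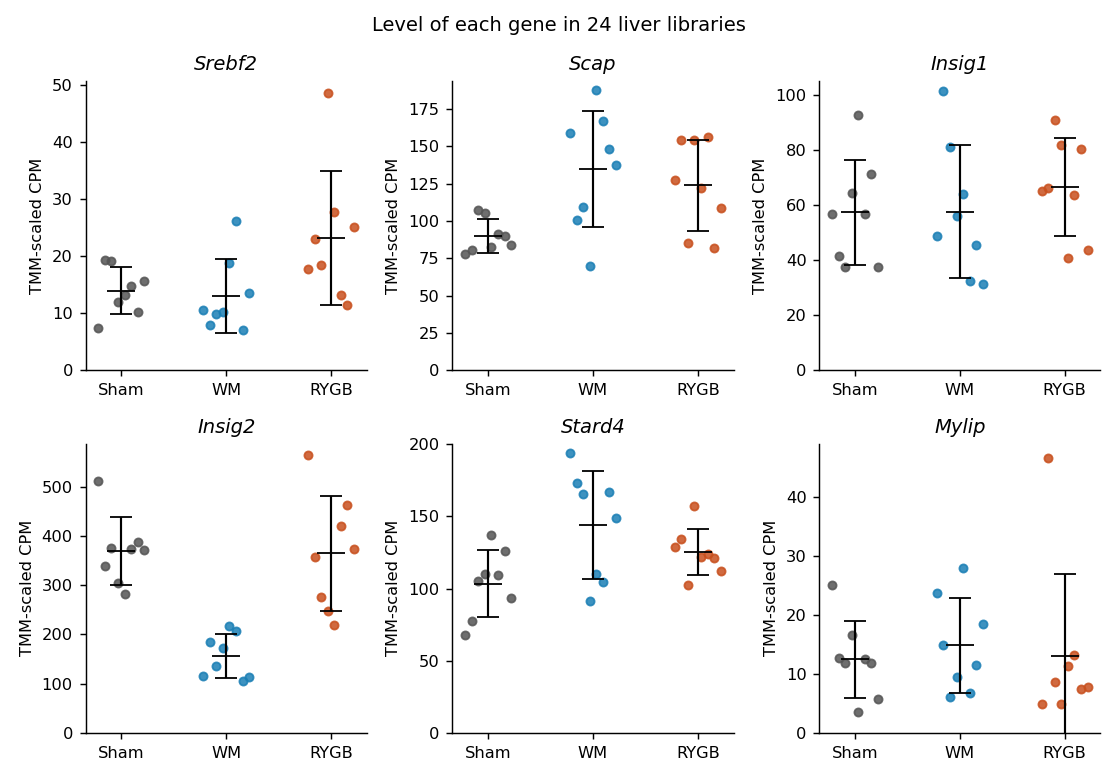
TMM-scaled CPM (vertical axes, starting at 0) of the 6 measured genes, with 1 point per library, 8 per group, and the mean ± SD in black. The WM points of Insig2 lie below all Sham and RYGB points, and single high points stand out for Srebf2 (RYGB 18) and Mylip (RYGB 11), whose lower bar is cut at 0.

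Insig2 encodes the INSIG protein whose messenger RNA had the highest mean of the 6 in every group, although in WM its median of 154 CPM was below the 157 CPM of Stard4. In Sham it had a lowest value of 283 CPM, a median of 372 CPM and a highest of 513 CPM, and the highest, Sham 2, stood apart from the next library at 388 CPM. In WM the lowest was 106 CPM, the median 154 CPM and the highest 217 CPM. In RYGB the lowest was 219.6 CPM, the median 366 CPM and the highest 564 CPM. The WM libraries did not overlap with either other group, although RYGB 19 lay just above WM 20. Of all tested genes, 5.82% had groups that did not overlap in WM vs Sham and 0.358% in RYGB vs WM. Insig2 was 2.35-fold lower in WM than in Sham (log2 fold change -1.23 ± 0.20 (SE), adjusted p = 2.62e-05 in edgeR, lower than the Sham median in 8 of 8 libraries). It was 2.33-fold higher in RYGB than in WM (log2 fold change 1.22 ± 0.20, adjusted p = 0.000568 in edgeR, higher than the WM median in 8 of 8 libraries), with the 22nd smallest p of the 13121 genes. Between RYGB and Sham the log2 fold change was -0.01, with a 95% interval from -0.41 to 0.39. The counts behind these levels were large, from 1420 to 11880 per library. Both calls on Insig2 held under each of the 10 other settings and without any 1 of the 24 libraries. The RYGB libraries lowest in Insig2, RYGB 19 and RYGB 18, also carried pancreatic transcripts, described with Srebf2. Without them and Sham 17 the log2 fold change in RYGB vs WM was 1.39 (adjusted p = 0.000176 in edgeR).

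Hepatocyte markers, which include albumin, moved differently from Insig2. Their summed level was 35167 to 77927 CPM in Sham, 78880 to 137725 CPM in WM and 87736 to 145662 CPM in RYGB, with 8 of 10 called higher in WM vs Sham and 0 of 10 called in RYGB vs WM. In whole liver RNA, fewer cells of a type and less RNA per cell cannot be told apart. Kupffer cell markers (8 of 11), endothelial markers (7 of 10) and stellate and matrix markers (7 of 11, lower) were also called in WM vs Sham, and 0 of these lists' genes in RYGB vs WM. Of all tested genes, 16.5% were called higher and 15% lower in WM vs Sham, but only 1.06% and 0.434% in RYGB vs WM. With so few genes called in RYGB vs WM, 0 called in a short list is near those shares. Kupffer cells are the resident macrophages of the liver. Summed Kupffer cell markers ran from 79.5 to 381 CPM in Sham and from 281 to 808 CPM in WM, endothelial markers from 58.2 to 281 and from 209 to 393 CPM, and stellate and matrix markers from 446 to 873 and from 285 to 449 CPM. All genes of these 4 lists had counts in every group. Bile duct (cholangiocyte) markers, 5 of 8 with a row, summed to 44.8 to 101 CPM in Sham, 21.3 to 37.3 CPM in WM and 31.7 to 50.6 CPM in RYGB, with no overlap between WM and Sham. Of these 5, Sox9 and Spp1 were called lower in WM vs Sham (adjusted p = 0.00165 and 1.14e-05 in edgeR) and 0 were called in RYGB vs WM. The sums rest mostly on Sox9 and Spp1, with means of 25.6 and 40.2 CPM in Sham. Krt19 and Krt7 had higher means in WM (2.74 and 0.985 CPM) than in Sham (0.976 and 0.446 CPM) and were not called. Epcam, at 0.792 CPM in WM and 0.842 CPM in Sham, was not called either. The median log2 fold change of the 5 in WM vs Sham was -0.07, so the list did not fall as a whole. For adipocyte markers, sums ran from 3156 to 5086 CPM in Sham, from 849 to 4233 CPM in WM and from 1268 to 4844 CPM in RYGB. Of the 4 adipocyte markers tested, Car3 was called lower in WM vs Sham (adjusted p = 0.0125), and Cfd was called higher in RYGB vs WM (adjusted p = 0.0230). In WM vs Sham 0 of the 4 were called higher, although the highest log2 fold change among them was 2.21. In RYGB vs Sham 1 was called higher and 0 lower, beside 12.7% and 11% of all tested genes. The part of these markers in the members' differences was not tested.

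Promoter sequences are shown for 3 members, Insig2, Insig1 and Srebf2. The level of Insig2 differed, the differences of its paralogue Insig1 did not pass the test, and Srebf2 encodes the factor that the INSIG proteins restrain. The sequences are RefSeq sequence of GRCm38.p6, 5′ to 3′ on the strand of the gene, and hold only the bases before the annotated transcripts. Capitals mark the box bound by the factor NF-Y (CCAAT on either strand) and, in Srebf2, part of a sterol regulatory element. The deposited coordinates did not match this build and were not used.

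Insig2, chr1:121332590-121332839, minus strand: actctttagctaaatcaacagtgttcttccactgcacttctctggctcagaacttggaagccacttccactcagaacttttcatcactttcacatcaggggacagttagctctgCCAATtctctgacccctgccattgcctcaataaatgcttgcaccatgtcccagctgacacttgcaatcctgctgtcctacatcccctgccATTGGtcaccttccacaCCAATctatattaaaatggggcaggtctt

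Insig1, chr5:28071162-28071362, plus strand: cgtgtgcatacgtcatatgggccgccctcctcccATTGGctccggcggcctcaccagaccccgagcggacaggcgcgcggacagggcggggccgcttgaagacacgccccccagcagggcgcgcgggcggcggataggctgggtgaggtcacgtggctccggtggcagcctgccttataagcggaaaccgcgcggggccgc

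Srebf2, chr15:82147019-82147180, plus strand: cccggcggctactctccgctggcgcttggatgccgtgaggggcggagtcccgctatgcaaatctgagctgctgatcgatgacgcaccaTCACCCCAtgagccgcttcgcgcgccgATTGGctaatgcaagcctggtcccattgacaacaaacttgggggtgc

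The sterol regulatory element TCACNCCAC, which SREBP2 binds, was searched on both strands in the 250 bases before each start site. It was found in none of the 6 members searched, Npc1l1 included, and in 1.05% of all 32851 windows. Stard4, on chromosome 18, was left out, so its promoter was not searched among the members. Without its last base (TCACNCCA, a form chosen after the sequences were seen and contained in the longer one) it was found once, in Srebf2 at -162 from the start site, against 3.67% of all windows. CCAAT was found 3 times before the outermost Insig2 start site and 3 times in Mylip, once each in Insig1, Npc1l1 and Srebf2, and in 33.8% of all windows. A pair of AGGTCA half-sites in the same direction and 4 bases apart, the LXR element, was found in none of these 6 members and in 0.0152% of all windows. Such matches describe letters only. Insig2 has 3 start sites in this table, and 3′ reads do not show which of them a transcript used.

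Insig1, the paralogue of Insig2, did not follow it. In Sham the lowest value was 37.6 CPM, the median 56.8 CPM and the highest 92.9 CPM. In WM these were 31.3, 52.3 and 102 CPM, and in RYGB 41.0, 65.8 and 90.8 CPM. The 3 groups overlapped over most of their range. The log2 fold change was 0.01 in WM vs Sham (95% interval -0.47 to 0.49, adjusted p = 0.987), 0.22 in RYGB vs Sham (-0.26 to 0.70, adjusted p = 0.540) and 0.21 in RYGB vs WM (-0.27 to 0.69, adjusted p = 0.845), all in edgeR. A p that misses the threshold does not show that the levels are alike, and the intervals reach 0.49 on the log2 scale for WM and 0.70 for RYGB.

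The balance of the paralogues was read within each library as the log2 ratio of the Insig1 count to the Insig2 count, which does not depend on library size. The ratio was -2.73 ± 0.60 in Sham, -1.50 ± 0.63 in WM and -2.44 ± 0.58 in RYGB. As a share of the counts of both genes, Insig1 made up 13.8 ± 5.37% in Sham (9.11 to 24.7%), 26.9 ± 7.91% in WM (13.4 to 37.5%) and 16.2 ± 5.70% in RYGB (10.4 to 24.9%). The ranges overlapped in every pair of groups. By a two-sided exact permutation test of 8 against 8, adjusted over 3 comparisons, the ratio was 2.35-fold higher in WM than in Sham (adjusted p = 0.00839) and lower in RYGB than in WM (log2 difference -0.94, adjusted p = 0.0161). RYGB and Sham differed by 0.29 on the log2 scale (adjusted p = 0.340 in the exact permutation test). The ratio uses the same counts as the Insig2 calls and is not a separate result. In WM vs Sham the log2 fold change was 0.01 for Insig1 and -1.23 for Insig2 in edgeR.

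**Figure D2:**
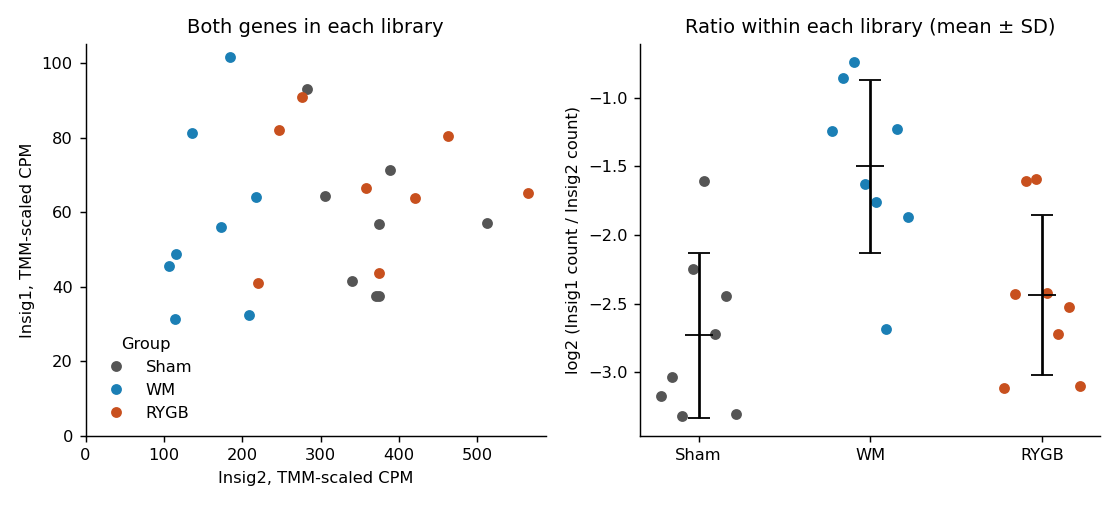
Left, the level of Insig1 against that of Insig2 (TMM-scaled CPM, both axes starting at 0), 1 point per library, coloured by group. Right, the log2 ratio of their counts in each library with the mean ± SD per group (n = 8). WM libraries lie to the left at low Insig2 with Insig1 values that overlap those of the other groups, and their mean ratio is -1.50 against -2.73 in Sham and -2.44 in RYGB.

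Srebf2 encodes the SREBP2 precursor and was among the scarcest of the 6, with 101 to 738 counts per library. In Sham the lowest value was 7.46 CPM, the median 13.9 CPM and the highest 19.3 CPM. In WM these were 6.99, 10.4 and 26.1 CPM, and in RYGB 11.4, 20.7 and 48.5 CPM. RYGB lay highest by mean (23.1 ± 11.7 CPM, against 13.9 ± 4.13 in Sham and 13.0 ± 6.44 in WM), and the groups overlapped. The log2 fold change was 0.73 ± 0.28 in RYGB vs Sham (adjusted p = 0.0563 in edgeR, above the Sham median in 6 of 8 libraries) and 0.83 ± 0.28 in RYGB vs WM (adjusted p = 0.174, above the WM median in 8 of 8 libraries). In WM vs Sham it was -0.10, with a 95% interval from -0.68 to 0.47.

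The Srebf2 value in RYGB rests in part on RYGB 18, whose 48.5 CPM was far above the next library at 27.8 CPM. Without RYGB 18 the log2 fold change was 0.49 in RYGB vs Sham (adjusted p = 0.188 in edgeR) and 0.59 in RYGB vs WM (adjusted p = 0.394). RYGB 18 and RYGB 19, and Sham 17, also carried RNA typical of the exocrine pancreas (acinar cells). Summed over 14 acinar genes outside those tested, they reached 2955, 2936 and 1318 CPM, against at most 25.7 CPM in the other 21 libraries. RYGB 18 and RYGB 19 had the highest Srebf2 levels of all libraries. Without these 3 libraries Srebf2 had a log2 fold change of 0.33 in RYGB vs Sham (adjusted p = 0.457) and 0.48 in RYGB vs WM (adjusted p = 0.531). Without WM 25, the WM library highest in Srebf2, Srebf2 was called in RYGB vs WM (log2 fold change 1.06, adjusted p = 0.0331) and in RYGB vs Sham (0.73, adjusted p = 0.0329). The RYGB vs Sham call was also gained without Sham 3, Sham 5, RYGB 22 or RYGB 28 (adjusted p from 0.0326 to 0.0484) and when only RYGB and Sham were fitted (adjusted p = 0.0330). After a correction of each library for trends on GC content and transcript length, Srebf2 was called in both comparisons in edgeR (0.88, adjusted p = 0.000699, and 0.85, adjusted p = 0.00645). The length used was that of each gene's longest transcript, while 3′ end counts give about 1 read per transcript whatever its length.

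Scap encodes the escort protein that carries SREBP precursors out of the endoplasmic reticulum. In Sham the lowest value was 78.1 CPM, the median 86.9 CPM and the highest 107 CPM. In WM these were 70.1, 143 and 188 CPM, and in RYGB 81.5, 125 and 156 CPM. Sham values were closely spaced, and the treated groups reached higher while still overlapping with Sham. Scap rose from 89.8 ± 11.1 to 135 ± 38.9 CPM in WM (log2 fold change 0.59 ± 0.18, adjusted p = 0.0138 in edgeR, above the Sham median in 7 of 8 libraries). In RYGB it stood at 124 ± 30.3 CPM, and the log2 fold change of 0.46 ± 0.18 against Sham did not pass (adjusted p = 0.0609). It passed when only RYGB and Sham were fitted (0.47, adjusted p = 0.0276 in edgeR), after a correction for GC content and transcript length (0.56, adjusted p = 0.0221), and without WM 13, RYGB 15 or RYGB 28 (adjusted p = 0.0387, 0.0392 and 0.0351). RYGB and WM differed by -0.12 on the log2 scale, with a 95% interval from -0.49 to 0.24.

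Stard4 encodes a soluble carrier that moves cholesterol between membranes inside the cell. In Sham the lowest value was 68.1 CPM, the median 107 CPM and the highest 137 CPM. In WM these were 91.0, 157 and 194 CPM, and in RYGB 103, 123 and 157 CPM. WM spread in a lower cluster of 3 libraries (WM 13, WM 20 and WM 25) inside the Sham range and 5 libraries above it. Stard4 rose from 103 ± 23.1 to 144 ± 37.6 CPM in WM (log2 fold change 0.48 ± 0.17, adjusted p = 0.0296 in edgeR, above the Sham median in 6 of 8 libraries). This call was lost without any 1 of Sham 2, Sham 3, Sham 23, WM 1, WM 7 or WM 27 (adjusted p up to 0.0734) and when only WM and Sham were fitted. In RYGB it stood at 125 ± 16.2 CPM (log2 fold change 0.28 against Sham, 95% interval -0.07 to 0.62, adjusted p = 0.243).

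The calls on Scap and Stard4 also depended on how libraries were scaled. Scaled by library totals in place of TMM, the median log2 fold change of all genes moved from -0.01 to -0.33 in WM vs Sham and from -0.01 to -0.36 in RYGB vs Sham, and the share of called genes that were higher moved from 52.4% to 22.4% and from 53.6% to 17.6%. On that scale Scap had 0.23 (adjusted p = 0.304 in edgeR) and Stard4 0.16 (adjusted p = 0.521) in WM vs Sham. Relative to the median of all genes these were 0.57 and 0.50. Stard4 in RYGB vs Sham was -0.08 on that scale, which is 0.28 above the median of all genes, against 0.29 above it with TMM. After the GC and length correction it was called (0.59, adjusted p = 0.00966 in edgeR). Under that correction the median of all genes in RYGB vs Sham was 0.06, and 63.2% of called genes were higher, against 53.6% with TMM. Insig2 in WM vs Sham was -1.60 by library totals and -1.12 after the correction.

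**Figure D3:**
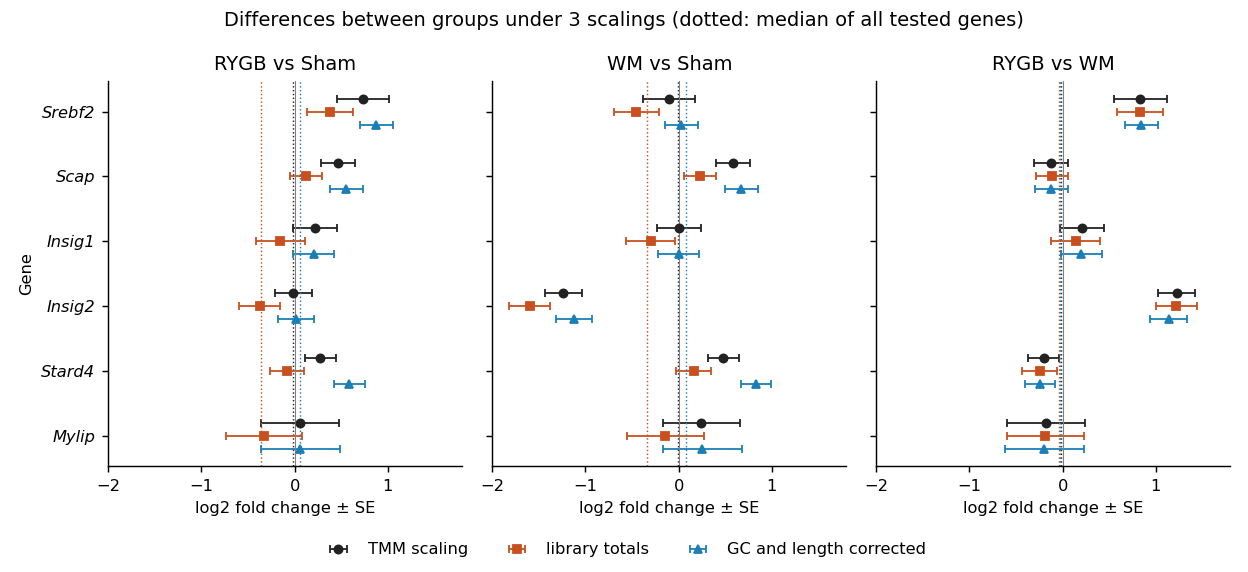
Log2 fold change ± SE (horizontal axes) of the 6 genes in the 3 comparisons, fitted in edgeR with TMM scaling (circles), library totals (squares) and a correction for GC content and transcript length (triangles). Dotted lines give the median of all tested genes under each. Insig2 lies far from the median in WM vs Sham and RYGB vs WM under all 3, while Scap and Stard4 in WM vs Sham come close to 0 under library totals.

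Mylip encodes the ubiquitin ligase that limits uptake of LDL particles. It was low, with 73 to 580 counts per library, and varied widely within groups. In Sham the lowest value was 3.61 CPM, the median 12.2 CPM and the highest 25.0 CPM. In WM these were 6.09, 13.1 and 28.0 CPM, and in RYGB 4.87, 8.25 and 46.6 CPM. The RYGB mean was 13.1 ± 13.8 CPM, with RYGB 11 far above the other 7 libraries, which held at most 13.2 CPM. The log2 fold change in RYGB vs Sham was 0.06 ± 0.42 (adjusted p = 0.934 in edgeR) and became -0.59 without RYGB 11 (adjusted p = 0.230). In RYGB vs WM it was -0.18 (adjusted p = 0.945) and -0.83 without RYGB 11 (adjusted p = 0.306). The 95% interval in WM vs Sham ran from -0.61 to 1.10.

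By level, Insig2 came first in Sham and RYGB with no overlap with Stard4, which came next. In WM, Insig2 and Stard4 overlapped, and Insig2 was the higher in only 4 of 8 libraries. Stard4 and Scap overlapped in all 3 groups, and so did Scap and Insig1, although Scap was the higher of the latter pair in 7 of 8 libraries of each group. Srebf2 and Mylip came last and overlapped in each group.

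No pair of members passed a test of correlation within a group. Over all 6 pairs of Srebf2, Insig1, Insig2 and Stard4 in each group of 8, 18 correlations of log2 CPM, 0 had an adjusted p below 0.05, and 0 had an unadjusted p below 0.05 by Pearson's r (two-sided exact permutation of pairings). The smallest p was for Srebf2 and Insig2 in RYGB (Pearson's r = -0.69, exact permutation p = 0.0557, adjusted p = 0.363, and Spearman's rho = -0.81, p = 0.0218, adjusted p = 0.392, n = 8). Without the 2 libraries farthest from the Srebf2 median on the log2 scale, RYGB 18 and RYGB 28, r was -0.56. RYGB 18 and RYGB 19 were the highest in Srebf2 and the lowest in Insig2. The correlation without RYGB 18 and RYGB 19 together was not computed.

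The genes with the most similar profile over the 24 libraries, by Pearson's r of log2 CPM, are given as a description, since libraries share group and depth. Insig2 was most like Tubb2a (r = 0.87), a tubulin, Syne1 (r = 0.87), which links the nucleus to the cytoskeleton, and Litaf (r = 0.87). With group means removed these fell to r = 0.48, 0.49 and 0.58. Tubb2a stood at 216 CPM in Sham, 35.0 CPM in WM and 156 CPM in RYGB. Srebf2 was most like Steap3 (r = 0.93), a metalloreductase, Arhgef19 (r = 0.88) and Dhcr7 (r = 0.86), the last enzyme of cholesterol synthesis, and with group means removed r was 0.90, 0.86 and 0.83. Scap was most like Gcat (r = 0.85), F7 (r = 0.84) and Hpn (r = 0.83), which encode a threonine-degrading enzyme, a clotting factor and a hepatocyte protease. Stard4 was most like Homer2 (r = 0.76), Egfr (r = 0.76) and Sord (r = 0.74). Insig1 was most like Dlc1 (r = 0.79), Ube2g1 and Rsl1d1 (r = 0.75 both), and Mylip most like F8 (r = 0.86), Ppp1r16b and Abcc1 (r = 0.85 both).

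The enzymes of cholesterol synthesis, known targets of SREBP2, were mostly higher in RYGB than in Sham. Of 19 genes of cholesterol synthesis, 17 rose and 0 fell in RYGB vs Sham, with a median log2 fold change of 1.57 against -0.01 for all tested genes. In WM vs Sham 11 rose and 1 fell, with a median of 0.85, and in RYGB vs WM 5 were higher and 0 lower, with a median of 0.71 against -0.02 for all genes. Of all tested genes, 12.7% were called higher and 11% lower in RYGB vs Sham, and 16.5% and 15% in WM vs Sham. In RYGB vs WM the shares were 1.06% and 0.434%. Scaled by library totals the counts among the 19 genes were 14 and 0, 9 and 3, and 4 and 0, in the same order. Of all 13121 genes, 754, 1049 and 118 were called higher on that scale, and 3534, 3637 and 53 lower. Sqle, the squalene epoxidase, rose in RYGB vs Sham by 2.59 ± 0.26 on the log2 scale (adjusted p = 4.19e-08 in edgeR). Hmgcs1, which makes the HMG-CoA of the mevalonate pathway, was the 1 that fell in WM, at 150 ± 71.1 CPM there against 551 ± 211 CPM in RYGB (log2 fold change 1.88 ± 0.27 in RYGB vs WM, adjusted p = 0.000138). Lss, the lanosterol synthase, stood at 10.6 ± 3.05 CPM in WM and 28.5 ± 6.80 CPM in RYGB (adjusted p = 0.000577). Tm7sf2, a sterol reductase, rose by 2.23 in WM vs Sham and differed by -0.16 between RYGB and WM. Cyp51, the lanosterol demethylase, and Ebp, a sterol isomerase, also rose in WM vs Sham (1.44 and 1.32), and Msmo1, a sterol oxidase, was higher in RYGB than in WM (1.02). Cyp51 and Pmvk, a mevalonate pathway kinase, rose in RYGB vs Sham (2.12 and 1.59).

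**Figure D4:**
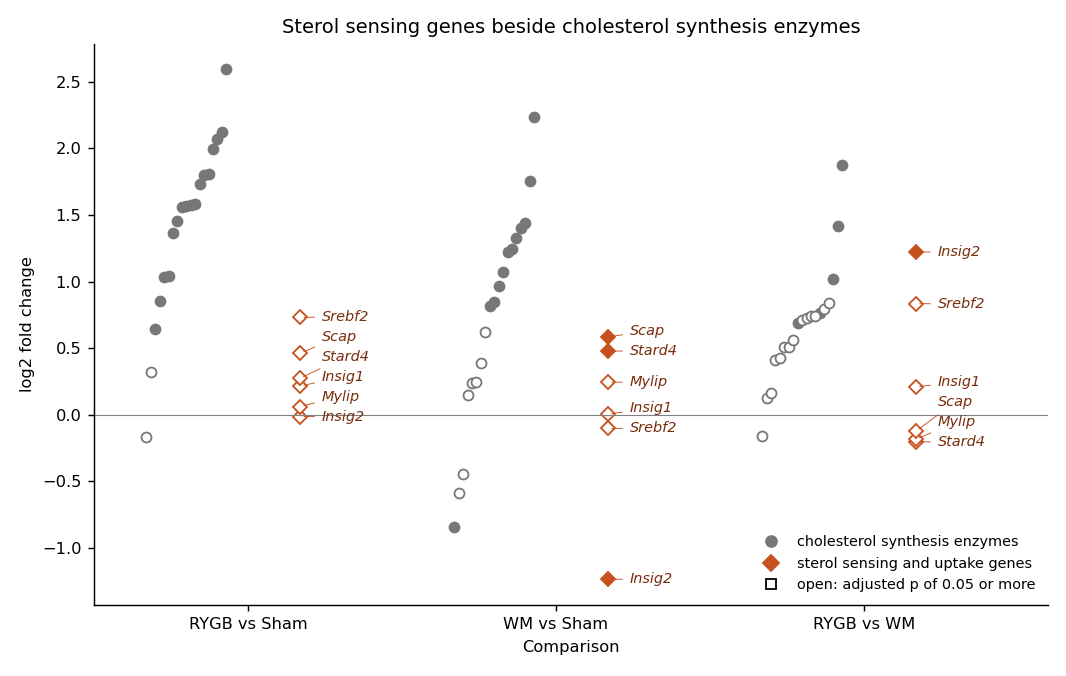
Log2 fold change (vertical axis) of the 19 cholesterol synthesis enzymes (circles, sorted) and the 6 sterol sensing and uptake genes (diamonds) in the 3 comparisons, filled where the adjusted p is below 0.05. Of the enzymes 17 are filled above 0 in RYGB vs Sham, where no sensing gene is filled, and Insig2 is the lowest point of WM vs Sham.

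Among 21 genes that process SREBP precursors or degrade proteins at the endoplasmic reticulum, 2 rose and 0 fell in each comparison with Sham, with medians of 0.04 in RYGB and -0.04 in WM, and 0 were called in RYGB vs WM. The shares of all tested genes called higher were 12.7% in RYGB vs Sham and 16.5% in WM vs Sham, and those called lower 11% and 15%. In RYGB vs WM only 1.06% of all tested genes were called higher and 0.434% lower. The risen ones were Ufd1 and Aup1, which act in the removal of proteins from that membrane. Aup1 stood at 102 ± 26.0 CPM in Sham, 194 ± 65.0 CPM in WM and 162 ± 38.9 CPM in RYGB (adjusted p = 0.00111 and 0.0177 against Sham in edgeR). Scaled by library totals, 0 rose and 5 fell in RYGB vs Sham and 1 rose and 4 fell in WM vs Sham, where 3534 and 3637 of all 13121 genes were called lower. In RYGB vs WM, edgeR by library totals and after the GC and length correction also called 0 of the 21. Of all 13121 genes these 2 settings called only 171 and 340 there, so 0 of a short list is near that share.

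Among 10 LXR genes, which respond to sterol excess and hold the receptors and targets other than Mylip, 1 rose in RYGB vs Sham, 3 rose and 2 fell in WM vs Sham, and 1 was higher and 1 lower in RYGB vs WM. Beside this list and the lists below, 12.7% of all tested genes were called higher and 11% lower in RYGB vs Sham. The shares were 16.5% and 15% in WM vs Sham, and 1.06% and 0.434% in RYGB vs WM. The receptor gene Nr1h3 rose from 70.4 ± 13.9 CPM in Sham to 158 ± 57.7 CPM in WM and 121 ± 19.8 CPM in RYGB (adjusted p = 4.6e-05 and 0.00392). Abcg5, a sterol exporter, was higher in WM (33.1 ± 7.78 CPM) than in Sham (18.3 ± 3.93 CPM, adjusted p = 0.000435) and RYGB (20.2 ± 4.25 CPM, adjusted p = 0.0285). Lpcat3, a phospholipid acyltransferase, fell in WM vs Sham by 0.76 on the log2 scale (adjusted p = 0.00828). Lpl, a lipase of lipoproteins, was higher in RYGB than in WM (1.18, adjusted p = 0.0293). Scaled by library totals, 1 rose and 3 fell in RYGB vs Sham, 2 rose and 2 fell in WM vs Sham, and 0 were higher and 1 lower in RYGB vs WM. On that scale, 3534 of all 13121 genes were called lower in RYGB vs Sham, 3637 in WM vs Sham and 53 in RYGB vs WM.

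Of 13 genes that move or store sterols inside cells, 0 rose and 2 fell in RYGB vs Sham, 2 rose and 3 fell in WM vs Sham, and 1 was higher in RYGB than in WM. That 1 was Lipa, the lysosomal acid lipase that frees cholesterol from LDL, at 472 ± 102 CPM in Sham, 219 ± 37.0 CPM in WM and 379 ± 67.1 CPM in RYGB (adjusted p = 5.1e-06 in WM vs Sham and 0.0041 in RYGB vs WM). Like Insig2, Lipa was called lower in WM vs Sham and higher in RYGB vs WM. After the GC and length correction, 0 of the 13, Lipa included, were called in RYGB vs WM, while Insig2 still was. That correction called 340 of all 13121 genes in RYGB vs WM. In RYGB vs Sham, Npc1, which exports cholesterol from lysosomes, fell by 0.50 and Osbp, an oxysterol-binding carrier, fell by 0.72 on the log2 scale (adjusted p = 0.0284 and 0.0173). Soat2, which esterifies cholesterol, rose in WM vs Sham (0.61, adjusted p = 0.0143), and Gramd1c, a membrane-contact sterol carrier, fell by 0.85 (adjusted p = 0.00252). Scaled by library totals, 0 rose in either comparison with Sham, while 6 fell in RYGB and 4 in WM. Of all 13121 genes, 3534 were called lower in RYGB vs Sham and 3637 in WM vs Sham on that scale.

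Among 13 measured genes of lipoprotein receptors and their endocytosis, out of 14 listed, 2 rose and 3 fell in RYGB vs Sham, 4 rose and 3 fell in WM vs Sham, and 0 were called in RYGB vs WM by edgeR under TMM scaling, library totals or the GC and length correction. Vldlr, a receptor that MYLIP also targets, fell from 15.6 ± 6.10 CPM in Sham to 6.48 ± 4.36 CPM in WM and 7.21 ± 1.34 CPM in RYGB (adjusted p = 0.00237 and 0.00844). Numb, an endocytic adaptor, fell by 0.97 in RYGB vs Sham and by 0.96 in WM vs Sham on the log2 scale (adjusted p = 0.00117 and 0.000867). Lrp1, a receptor for lipoprotein remnants, rose in RYGB vs Sham (0.68, adjusted p = 0.0119), and Commd1, of a receptor recycling complex, rose in WM vs Sham (1.18, adjusted p = 0.00633). Scaled by library totals, 0 rose and 3 fell in each comparison with Sham. On that scale, 3534 of all 13121 genes were called lower in RYGB vs Sham and 3637 in WM vs Sham. In RYGB vs WM, 171 of all 13121 genes were called by library totals and 340 after the GC and length correction.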

How the data were processed

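The 24 libraries measured liver messenger RNA. Per the labels' protocols they came from a QuantSeq 3′ kit with 50 bp forward reads. The authors deposited raw counts per Ensembl gene and a normalized signal, each count divided by 1 size factor per library. DESeq2 is named in the submitters' processing notes, at version 1.34, with R at 4.1.2. No source used here names the aligner, the counting program, the build or the strand setting. Groups came from the sample titles.

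edgeR 4.0.16 (R 4.3.3) was run on the counts. Low genes were dropped with filterByExpr, which left 13121 of 14995, and 1 quasi-likelihood model with TMM scaling and no covariate covered all 24 libraries. Library totals ran from 13659647 to 22766612 counts. Intervals of 95% come from that fit. Alternatives used DESeq2 1.42.0, limma 3.58.1, mgcv 1.9.3 (trends on GC content and transcript length, GENCODE M21), other scalings and filters, and left-out libraries. The fit was tested on simulated data in which few genes changed, so they do not test the scaling where many genes change. Named genes are the 7 members, up to 3 called genes of smallest p per list and comparison, and the 3 genes most like each member. The members and lists were chosen with earlier results of these data known. The promoter search used 9 windows for 6 members, matched by symbol, with chromosome 18, and so Stard4, left out.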

Additional observations from a re-analysis of the deposited data

Results flagged for a closer look

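In 3 of 21 groups of 8 values examined, 1 library lay far from the others, with a gap to the nearest library, over the range of the group, above Dixon's 95% critical value. Chance flags about 1 in 20 groups where the values are normally distributed. CPM was used here without a log transform, and whether it is normally distributed was not tested. All 3 flagged values were the highest of their group. Srebf2 in RYGB 18 stood at 48.5 CPM with the next library at 27.8 CPM. Insig2 in Sham 2 stood at 513 CPM with the next at 388 CPM. Mylip in RYGB 11 stood at 46.6 CPM with the next at 13.2 CPM. Their gaps were 0.558, 0.543 and 0.801 of the range.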

How the results depend on the processing

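No paired analysis was possible because the groups share no replicate numbers. For RYGB vs Sham, 3109 genes were called in edgeR and 5018 with limma-voom (2648 to 3514 when 1 library was left out). For RYGB vs WM, 196 were called, against 361 with DESeq2, 340 after the GC and length correction and 121 when only these groups were fitted (136 to 257 with 1 library left out). For WM vs Sham the range with 1 library left out was 3645 to 4299. Of the 6 members, 0 were called in RYGB vs Sham, against 1 with DESeq2, 2 when only these groups were fitted and 3 after the correction (0 to 2 with 1 library left out). In WM vs Sham 3 were called, and 1 by library totals (2 to 3). In RYGB vs WM 1 was called, and 2 with limma-voom and after the correction (1 to 2). The cause was not tested. No called value changed sign. The Insig1 to Insig2 ratio kept its direction and its side of the threshold in all 3 comparisons. Srebf2 and Mylip, with as few as 101 and 73 counts in a library, are the least precise.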
